A study of Mus musculus with 2 samples.

Results

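The small leucine-rich proteoglycans (SLRPs) are secreted core proteins built of leucine-rich repeats that sit on collagen fibrils. The members described here are 10 genes, Lum, Dcn, Bgn, Fmod, Kera, Ogn, Prelp, Aspn, Omd and Podn, and were found by matching the gene symbol in the platform's probe annotation. Each had 1 probe, all 10 were above background on both arrays, and they are 10 of the 18498 genes compared. Gene expression was measured on 1-colour arrays in gastrocnemius, a calf muscle, of female mice aged 10 weeks. The depleted sample had the genotype Pdgfra-CreER:R26-DTA, in which PDGFRα-positive mesenchymal progenitors are to be killed by diphtheria toxin A, and the control sample was from a littermate of genotype wild type:R26-DTA. Both groups thus carried the R26-DTA allele, both received tamoxifen on 5 days from 9 weeks of age, and both muscles were frozen 2 days after the final dose. The Cre is driven by Pdgfra, so any Pdgfra-expressing cell of the muscle can be targeted, and the effects of the CreER allele and of the depletion cannot be told apart. Each group held 1 array, so nothing here has a replicate check, no test was possible, and a difference between the arrays may be one between any 2 mice.

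SLRPs regulate how collagen molecules assemble into fibrils and how thick the fibrils become, and several also bind growth factors such as TGF-β in the matrix. In skeletal muscle they are made mainly by fibroblast-like interstitial cells and by the cells of tendon, fascia and perimysium, rather than by the myofibre. Decorin (Dcn) and biglycan (Bgn) carry chondroitin or dermatan sulfate chains, lumican (Lum), keratocan (Kera), fibromodulin (Fmod), osteomodulin (Omd) and osteoglycin (Ogn) can carry keratan sulfate, and asporin (Aspn) and Prelp are usually found without a chain. Many of the genes lie beside each other in the genome, in groups that arose by duplication.

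The promoters of 8 of the 10 genes were matched by symbol in a RefSeq table of build GRCm38.p6, as 9 windows of 300 bases, from 250 before to 50 after a gene's start. Lum and Dcn had no entry. Those of 4 genes are printed 5′ to 3′ on the gene's strand, chosen after their values were seen because these genes mark the range of the differences described next. They are Kera with a large decrease (chr10:97606955-97607254, plus strand), Ogn with a moderate one (chr13:49607765-49608064, plus strand), Podn, which was dim (chr4:108031905-108032204, minus strand, the first of its windows in gene direction), and Prelp, which alone was higher (chr1:133921352-133921651, minus strand). Capitals mark matches on either strand to the letters of the TATA box (TATAAA), of the CCAAT box or of the GC box, whose letters GGGCGG are bound by Sp1.
Kera: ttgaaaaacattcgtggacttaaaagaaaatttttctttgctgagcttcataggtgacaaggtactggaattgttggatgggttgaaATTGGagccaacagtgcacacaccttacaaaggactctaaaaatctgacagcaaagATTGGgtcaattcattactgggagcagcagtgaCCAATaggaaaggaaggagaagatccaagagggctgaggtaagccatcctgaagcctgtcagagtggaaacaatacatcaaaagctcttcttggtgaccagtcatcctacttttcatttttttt
Ogn: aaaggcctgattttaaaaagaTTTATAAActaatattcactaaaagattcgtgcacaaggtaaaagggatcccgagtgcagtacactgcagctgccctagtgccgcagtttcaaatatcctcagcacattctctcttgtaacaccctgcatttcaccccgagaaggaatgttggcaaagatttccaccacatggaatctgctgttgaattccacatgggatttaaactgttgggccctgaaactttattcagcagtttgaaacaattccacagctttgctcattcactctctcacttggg
Podn: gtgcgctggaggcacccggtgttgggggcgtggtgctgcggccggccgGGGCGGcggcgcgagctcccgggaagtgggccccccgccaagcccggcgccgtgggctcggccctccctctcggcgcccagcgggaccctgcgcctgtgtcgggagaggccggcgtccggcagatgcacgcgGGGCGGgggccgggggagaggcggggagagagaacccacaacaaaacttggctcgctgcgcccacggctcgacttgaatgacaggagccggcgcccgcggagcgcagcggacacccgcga
Prelp: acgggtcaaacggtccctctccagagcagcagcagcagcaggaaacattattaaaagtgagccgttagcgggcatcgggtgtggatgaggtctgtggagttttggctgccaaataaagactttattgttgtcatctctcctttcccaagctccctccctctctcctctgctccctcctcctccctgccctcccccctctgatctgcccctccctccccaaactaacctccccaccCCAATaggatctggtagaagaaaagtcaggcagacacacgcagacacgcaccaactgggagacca

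None of the letters searched was found in all 9 windows. The Kera window held 3 matches to CCAAT, at positions -163, -107 and -74 from the start, and at least 3 matches were found in 3.37% of the 32851 promoters of the table. The Ogn window held overlapping TATAAA matches at -229 and -227, far from the usual place of a TATA box, and the Aspn window held matches at -207 and -178. TATAAA was found in 2 of the 9 windows against 13.6% of all promoters, CCAAT in 4 of 9 against 37.4%, GGGCGG in 2 of 9 against 35.7%, the E-box letters CANNTG in 7 of 9 against 72.3%, and the AP-1 letters TGANTCA in 0 of 9 against 7.81%. The printed Podn window stood out in base composition, with 77% G and C and 41 CG pairs, while the median promoter had 52.7% and 7. The other Podn window had 63% and 7. The Kera window had 41% and 1 CG pair, that of Ogn 42.3% and 4, that of Omd 37.7% and 1, and that of Aspn 31% and 3. Matches of this kind describe letters and show no binding.

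After normalization most SLRP genes had less signal in the depleted sample. Of the 10 genes 9 were lower and Prelp was higher, against 52.4% of all genes that were lower by any amount; with scaling to the median Fmod was at 0.04, which leaves 8 lower. The median log2 ratio, depleted over control, was -0.40 for the SLRP genes and 0.00 for all genes compared, and with scaling to the median that of the SLRP genes was -0.12. Before any scaling the spot median was lower for 5 of the 10 genes (Lum, Kera, Ogn, Dcn and Podn) and higher for the other 5. Lum and Kera were at least 2-fold lower, 2 of 10 genes against 0.427% of all genes, and with Ogn 3 of 10 were at least 1.5-fold lower, against 1.52%. Lum was the 1 gene at least 3-fold lower, against 0.0919%. None of the 10 was at least 1.5-fold or 2-fold higher, against 1.96% and 0.492%. In the authors' processed values 9 of 10 were again lower, against 50.8% of all genes, and 3 of 10 at least 2-fold lower (Lum, Kera and Podn), against 2.15%. These genes were chosen with earlier results of the same arrays known, so the shares describe the list and are no evidence for it. Ratios are of intensities normalized as described under the processing, and fewer cells of a type cannot be told apart from less RNA per cell.

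**Figure D1:**
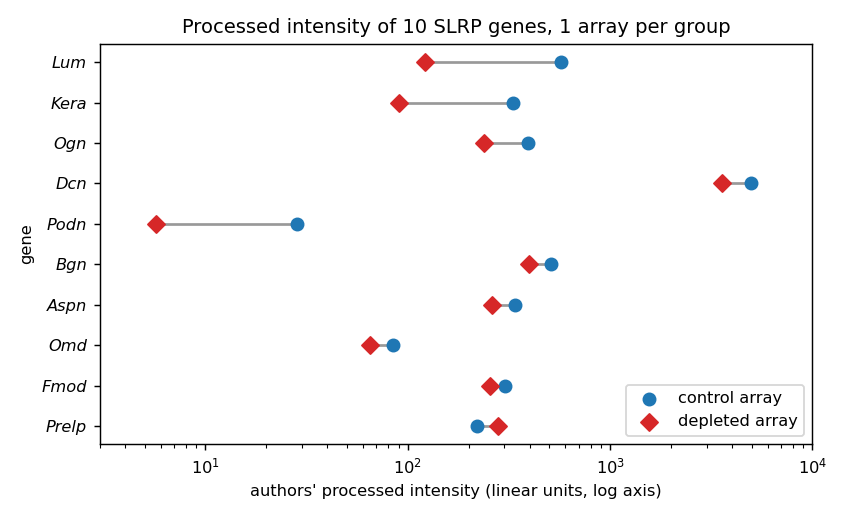
The authors' processed intensity of the 10 SLRP genes (horizontal log axis, linear units) in control (blue circles) and depleted (red diamonds) muscle, 1 array per group, ordered by log2 ratio. Each probe has its own brightness, so only the 2 points of 1 gene can be compared: 9 genes have the depleted point on the left, with the widest gaps for Lum, Kera and Podn, and Prelp has it on the right.

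Lum, whose product lumican binds collagen fibrils and keeps them thin, had the lowest normalized ratio of the 10 genes, although the dim Podn was lower in the processed values and with the blank spots or the local background subtracted. The Lum spot median was 487.9 in control and 167.2 in depleted muscle, and the authors' processed values were 574.8 and 122.3. The normalized log2 ratio was -1.84, or 3.57-fold lower, and the processed values gave 4.70-fold. Of the 18498 genes compared 12 had a lower ratio than Lum. The ratio lay between -2.26 and -1.32 under the 8 ways of processing that could move it, which are those of the plot of ratios by processing. The filters on dim genes and the averaging of probes cannot move a gene with 1 probe above background and are not counted.

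Kera encodes keratocan, a keratan sulfate proteoglycan best known from the cornea and also made in tendon and other collagen-rich tissue. Its spot median was 294.9 in control and 133.8 in depleted muscle, and its processed values were 329.2 and 90.9. The log2 ratio was -1.41, or 2.65-fold lower, and 25 genes had a lower ratio. The processed values gave 3.62-fold. Lum and Kera were the only genes of the 10 at least 2-fold lower under each of the 8 ways of processing. Subtraction of the local background column put Kera at -5.08, because on the depleted array that column (135.6) exceeded the spot itself, so this value rests on a floor and has no meaning as a size.

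Ogn, which encodes osteoglycin or mimecan, a small glycoprotein that affects fibril assembly, had a smaller difference. Its spot medians were 345.8 and 289.7 on the control and depleted arrays and its processed values 393.9 and 237.2. The log2 ratio was -0.63, or 1.55-fold lower. It was lower under all 8, from -0.75 to -0.37. Podn was lower than Ogn under 5 of the 8.

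Dcn encodes decorin, which binds collagen and TGF-β and is a widely used marker of fibroblasts. Its spot medians were 3934.9 and 3830.1, nearly equal, and its processed values 4961.3 and 3560.0. The normalized log2 ratio was -0.53, or 1.45-fold lower, so most of the difference came with the scaling of the arrays. With scaling to the median it was -0.17, and with the local background column subtracted -0.03. Dcn thus differed less than Lum, its neighbour in the genome. The difference between the log2 ratios of Lum and Dcn, which a single factor per array would not change, was -1.31. The ways of processing differ in more than such a factor. Under the 8 it lay between -1.75 and -1.29, negative in all. The difference between Kera and Dcn was -0.87, also negative under all 8, from -5.05 to -0.86. The -5.05 rests on the floor of Kera with the local background subtracted.

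Bgn and Aspn belong with Dcn to the first class of the family. Biglycan binds collagen and can act as a danger signal at Toll-like receptors, and asporin binds collagen and TGF-β. Bgn had spot medians of 438.2 in control and 461.7 in depleted muscle and processed values of 511.4 and 398.7. Its log2 ratio was -0.34, or 1.27-fold lower. Aspn had spot medians of 302.9 and 315.0, processed values of 339.3 and 260.9, and a log2 ratio of -0.34, or 1.26-fold lower. For both genes the unscaled spot was slightly brighter on the depleted array, and the lower ratio came from the scaling. Scaling to the median left -0.05 for Bgn and -0.07 for Aspn.

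Fmod and Prelp, which lie beside each other, went apart. Fibromodulin guides collagen cross-linking and is abundant in tendon, and Prelp anchors basement membranes to the underlying collagen. Fmod had spot medians of 272.8 in control and 307.6 in depleted muscle, processed values of 301.0 and 254.0, and a log2 ratio of -0.21, or 1.16-fold lower. With scaling to the median its ratio was 0.04, so its direction is not settled. Prelp had spot medians of 208.4 and 334.2, processed values of 219.1 and 279.0, and a log2 ratio of 0.28, or 1.21-fold higher. It was higher under all 8, from 0.04 to 0.52. The log2 ratio of Prelp exceeded that of Fmod by 0.49, and by between 0.48 and 1.36 under the 8.

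Omd and Podn were the dimmest members. Osteomodulin is a keratan sulfate proteoglycan of mineralized tissue, and podocan is a family member known to bind collagen. Omd had spot medians of 102.4 and 106.4, processed values of 84.2 and 65.1, and a log2 ratio of -0.22, or 1.17-fold lower. Its unscaled spot was slightly brighter on the depleted array, and scaling to the median left -0.08. Podn had spot medians of 58.5 in control and 43.1 in depleted muscle. Blank spots averaged 36.3 and 37.0 on these arrays, and the limit for above background was 37.4 and 38.5. Its normalized log2 ratio was -0.45, but the offset added in the background correction draws dim genes toward 0. In processed values, 28.3 and 5.7, it was 4.96-fold lower, the largest fold of the 10 genes in that scale. The size of the Podn difference therefore depends on how the blank level is treated, while its direction was the same in all 8.

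**Figure D2:**
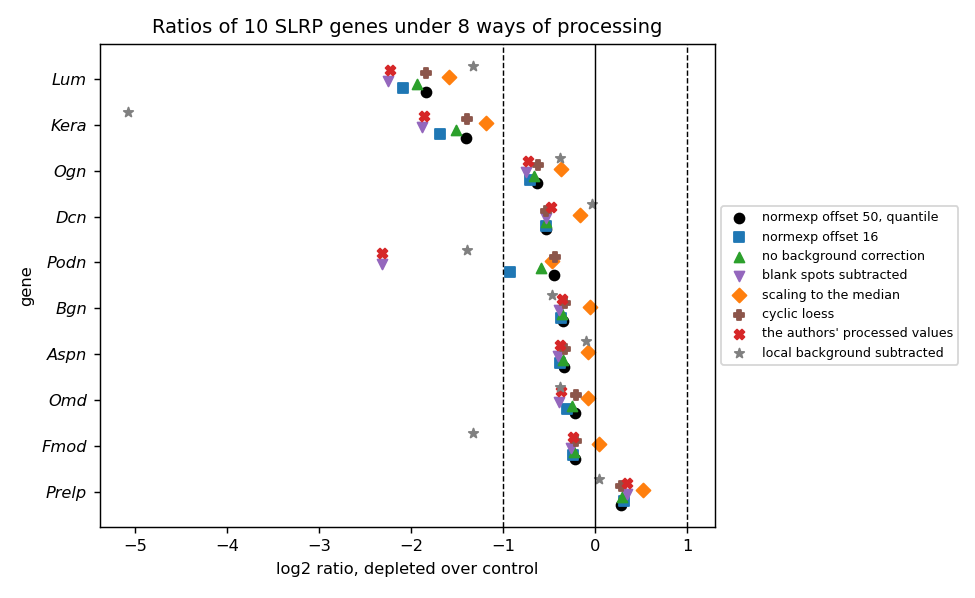
Log2 ratio, depleted over control (horizontal axis), of each SLRP gene under 8 ways of processing the same 2 arrays (marker shape and colour); dashed lines mark 2-fold. Lum and Kera lie beyond the 2-fold line for every marker, Prelp lies to the right of 0 for every marker, and Fmod reaches 0.04 with scaling to the median; the grey star of Kera at -5.08 rests on a floor.

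The scaling of the arrays decides the smaller differences. The authors' processed values multiply the spot minus the blank level by 1.27 for the control sample and by 0.939 for the depleted one, a shift of -0.44 on the log2 scale for every bright gene. Scaling to the median set the median of the genes at or above the median brightness at 0.15, against -0.01 in the quantile-normalized values. Which of these levels is right was not tested. The precision of a single bright spot can be gauged from 2 sets of 24 positive control spots per array. Their coefficient of variation within an array was 6.59% to 10.9%. With means of 850.6 to 9837.3 they were brighter than every member but Dcn, and the precision of dimmer spots was not measured. Between the arrays the positive control spots differed far more, by 2.12- and 1.74-fold, and by 1.60- and 1.28-fold after the authors' scaling. The normalized differences of Fmod, Omd and Prelp, 1.16- to 1.21-fold, are close to the spread of these control spots within an array. They and those of Aspn (1.26-fold) and Bgn (1.27-fold) are smaller than each of these differences between the arrays. The normalized differences of Podn (1.37-fold), Dcn (1.45-fold) and Ogn (1.55-fold) exceed only the smallest of them. Of the normalized folds only those of Lum (3.57-fold) and Kera (2.65-fold) exceed all of them. These comparisons mix scales, since the control spots are unscaled or on the authors' scale. In processed values Podn (4.96-fold), Lum (4.70-fold), Kera (3.62-fold) and Ogn (1.66-fold) exceed both differences left after the authors' scaling. Dcn (1.39-fold), Aspn (1.30-fold) and Omd (1.29-fold) exceed only the smaller, and Prelp (1.27-fold) and Fmod (1.19-fold) neither. Bgn was at 1.28-fold, and the variation between mice is unknown.

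**Figure D3:**
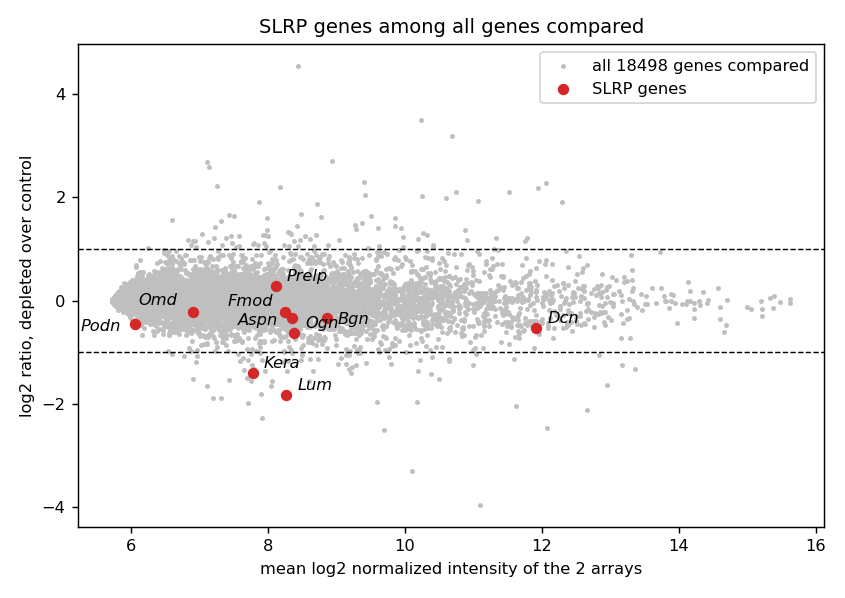
Log2 ratio, depleted over control (vertical axis), against the mean log2 normalized intensity of the 2 arrays (horizontal axis) for all 18498 genes compared (grey) and the SLRP genes (red, named); dashed lines mark 2-fold. Lum (-1.84) and Kera (-1.41) lie below the 2-fold line, and the other 8 lie between -0.63 and 0.28.

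By place in the genome, the members fell into 3 neighbourhoods. Dcn, Lum, Kera and Epyc follow each other, and their log2 ratios were -0.53, -1.84, -1.41 and -0.02. Epyc, the cartilage gene epiphycan, was barely above background, with processed values of 5.1 and 4.1, so its ratio says little. The nearest measured protein-coding genes on either side were Btg1 at 0.60 and Ccer1 at -0.02, the latter dimmer still, with processed values of 2.1 and 1.5. Ecm2, Aspn, Omd and Ogn also follow each other and were all lower, at -0.36, -0.34, -0.22 and -0.63. The nearest measured genes beside them, Cenpp and Nol8, were at -0.09 and 0.08. In the third neighbourhood Optc, Prelp and Fmod were at -0.02, 0.28 and -0.21, with the dim Atp2b4 (processed values 8.8 and 11.7) at 0.06 and Btg2 at 0.89 beside them. The order of genes is that of RefSeq. Bgn and Podn lie apart from other members.

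**Figure D4:**
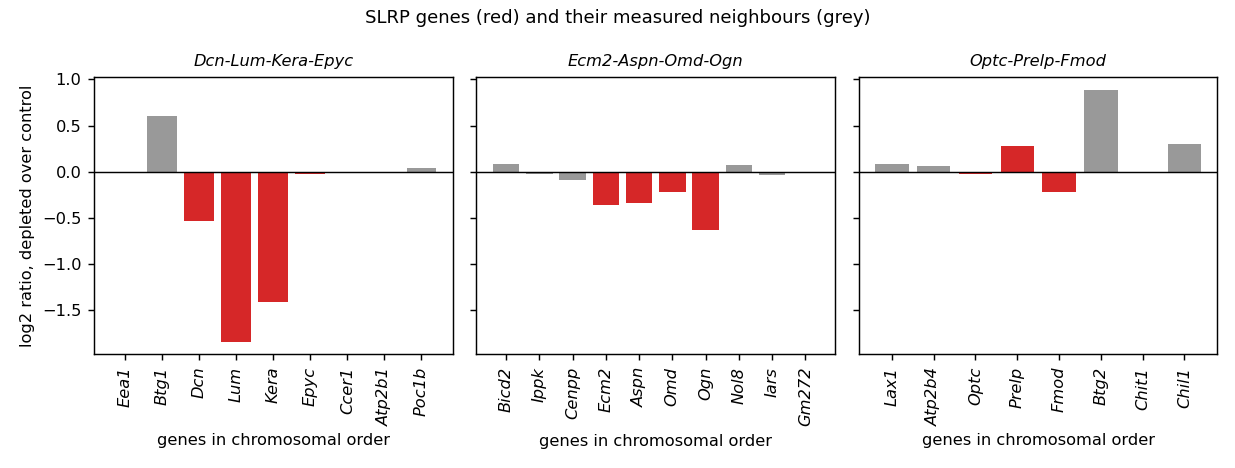
Log2 ratio, depleted over control (vertical axis), of SLRP genes (red bars) and of the measured protein-coding genes beside them (grey bars), in chromosomal order and not to scale, in 3 neighbourhoods. The first holds the largest decreases (Lum -1.84, Kera -1.41), the second 4 SLRP genes between -0.63 and -0.22, and the third both signs; with scaling to the median Fmod is at 0.04.

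By chain type, the 5 genes whose products can carry keratan sulfate (Lum, Kera, Ogn, Omd and Fmod) were all lower, from -1.84 to -0.21 with a median of -0.63, except that Fmod was at 0.04 with scaling to the median. The 2 chondroitin or dermatan sulfate genes Dcn and Bgn were at -0.53 and -0.34. With so few genes no difference between the types was examined. Of the other family genes on the array 7 could be compared, and 5 were lower, with a median of -0.02 and 0 of them 2-fold different. Most of them lie near background, and the median was -0.31 in processed values, -0.29 with the blank spots subtracted and 0.26 with the local background subtracted, where 1 was 2-fold different. With that last subtraction 10.9% of all genes were at least 2-fold lower and 10.5% higher. Ecm2 (-0.36) and Chad (-0.35), the gene of chondroadherin in cartilage and tendon, had processed values of 231.5 and 168.3 and of 345.5 and 263.0. Optc, Epyc, Nyx, Chadl and Podnl1 had processed values of at most 19.3, and Podnl1 was below background on the depleted array.

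The enzymes that build the SLRP chains had small ratios in the normalized values. Of 22 chondroitin and dermatan sulfate enzymes 15 were lower, with a median of -0.02 and a range from -0.20 to 0.13. B3gat3, which completes the linker to the core protein, was at -0.20, Chst7 at -0.17, with -0.09 on its dimmer probe, Chst12 at -0.15 and Chst14, the dermatan 4-O-sulfotransferase, at -0.10, while Dse, the dermatan sulfate epimerase, was at 0.13 and Chpf2 at 0.12. Of 7 keratan sulfate and tyrosine sulfation enzymes 5 were lower, with a median of -0.08. B4galt4 was at -0.23, the tyrosylprotein sulfotransferases Tpst1 and Tpst2 at -0.19 and -0.15, Chst2 at -0.08, B3gnt7 at -0.07 and Chst1 at 0.03. In processed values the medians of these lists were -0.15 and -0.20, and Chst2 was 1.56-fold lower, from 9.2 to 5.9. In both lists 0 enzymes were 2-fold different in the normalized values, and 4 and 2 were with the local background subtracted. With that subtraction 10.9% of all genes were at least 2-fold lower and 10.5% higher.

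Other proteoglycan core proteins lay on both sides of 0. Of 22 measured, 14 were lower, with a median of -0.02, and 0 were 2-fold different. In processed values 2 were, Gpc3 at 2.05-fold and Spock3, named after its values were seen, at 2.04-fold lower, and with the blank spots or the local background subtracted 2 and 3. Of all genes 2.15% were at least 2-fold lower and 3.20% higher in processed values. These shares were 1.95% and 2.72% with the blank spots subtracted, and 10.9% and 10.5% with the local background subtracted. Glypican 3 (Gpc3) was at -0.54 and syndecan 2 (Sdc2) at -0.53, whereas Prg4, the joint lubricant lubricin, was at 0.73, Sdc4 at 0.44, serglycin (Srgn), the proteoglycan of blood cell granules, at 0.27 and Esm1 at 0.18. A difference between these lists was not tested.

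The collagens that SLRPs bind were lower as well. Of 11 measured, 10 were lower, against 52.4% of all genes, with a median of -0.71. At least 2-fold lower were 3, against 0.427%: Col1a2 at -1.42, Col3a1 at -1.22 and Col6a2 at -1.06. The dimmer probe of Col3a1 gave -0.42. Col1a1 was at -0.97, Col5a1 at -0.78 and Col6a1 at -0.71. With scaling to the median the median of the list was -0.45 and 1 gene was at least 2-fold lower, against 0.205% of all genes. That count was 2 with the mean of probes, against 0.405% of all genes. It was 5 in processed values and with the blank spots subtracted, against 2.15% and 1.95%. The processed value of Col1a2 was 2286.0 in control muscle and 851.3 after depletion. Decorin, which decorates these fibrils, was at -0.53.

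Proteases that process or cleave SLRPs had a median of -0.08, with 6 of 11 lower. Htra1 was at -0.40, Mmp2 at -0.23, Gzmb at -0.16 and Adamts1 at -0.15, while Mmp14, a membrane-bound collagenase, was at 0.34 and Mmp3 at 0.12. Ligands and receptors that SLRPs bind had a median of 0.06, with 11 of 18 higher. Fas, a death receptor, was at 0.52, Tlr4 and its co-receptor Cd14, through which biglycan and decorin can signal, at 0.30 and 0.22, and Igf1r at 0.28. Ccn2, a matricellular growth factor, was at -0.27 and Tgfb3 at -0.20. In both lists 0 genes were 2-fold different in the normalized values, and 3 and 6 were with the local background subtracted. With that subtraction 10.9% of all genes were at least 2-fold lower and 10.5% higher. Mmp14 was 2.53-fold higher in processed values, from 11.9 to 30.1, and there Fas was 1.70-fold and Tlr4 1.77-fold higher.

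**Figure D5:**
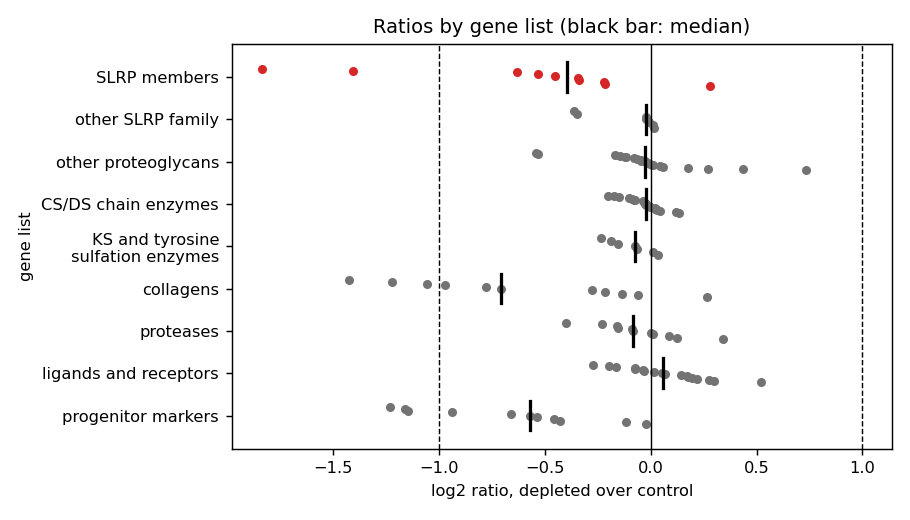
Log2 ratio, depleted over control (horizontal axis), of each measured gene (points) in the SLRP list (red), the related lists and the mesenchymal progenitor markers (grey); black bars are medians, dashed lines mark 2-fold and CS/DS and KS stand for chondroitin or dermatan and keratan sulfate. Medians are -0.40 for the SLRP genes, -0.71 for the collagens and -0.57 for the progenitor markers, and between -0.08 and 0.06 for the other lists.

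Markers of several cell types differed between the arrays beside the SLRP genes, and their part in the SLRP ratios was not tested. Pdgfra, the gene that marks the targeted cells, had a processed value of 273.1 in control muscle, one of 116.6 in the depleted sample and a log2 ratio of -0.94. Of 11 mesenchymal progenitor markers 11 were lower, with a median of -0.57 and summed processed values of 3229.0 and 1711.7, led by Dpt (-1.23), Smoc2 (-1.16) and Clec3b (-1.15). Tenocyte markers were mixed, with 4 of 6 lower, a median of -0.08 and sums of 1447.5 and 1558.1: Tnmd was at -0.98 and Comp at -0.32, while Thbs4 was at 0.29. Chondrocyte and osteoblast markers were lower in 5 of 7, with a median of -0.05, sums of 240.2 and 165.1 and Alpl at -0.52. Macrophage markers were higher in 6 of 6, with a median of 0.51, sums of 2462.9 and 5541.5 and Lyz2 at 1.22. Erythroid markers were lower in 4 of 4, with a median of -2.30 and sums of 31758.0 and 5713.8, though probes of near-identical globin genes can share signal. Endothelial markers were higher in 6 of 6, with a median of 0.12, sums of 484.2 and 701.1, Cldn5 at 0.83 and Pecam1 at 0.40, but 5 of 6 were lower with the local background subtracted. Mural markers were higher in 4 of 6 (median 0.11, sums of 1776.8 and 2438.8, Acta2 at 0.61) and muscle stem cell markers in 3 of 4 (median 0.10, sums of 221.1 and 310.1, Cdh15 at 0.58). Adipocyte markers were higher in 2 of 3 (median 0.24, Adipoq at 0.28) and Schwann cell markers in 1 of 3 (median -0.02, S100b at -0.29). The local background subtraction also moved other lists. With it 3 of 4 muscle stem cell, 2 of 3 adipocyte and 3 of 3 Schwann cell markers were lower. Macrophage markers were then higher in 4 of 6, and progenitor markers lower in 10 of 11. Every marker measured in the progenitor, tenocyte, macrophage and erythroid lists was above background on both arrays. The skeletal muscle label was borne out by Acta1, with processed values of 65519.4 and 45415.0, Ckm (47282.5 and 35711.4) and Myh4 (45140.8 and 32396.5), all bright on both arrays. Of 9 myofibre markers 7 were lower, with a median of -0.16, Pvalb at -1.25, Myh7 at -0.51 and Myh1 at -0.43, and in processed values 9 of 9 were lower with a median of -0.53.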

How the data were processed

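The deposited scanner files hold linear spot intensities (median pixel, 635 nm) that combine 3 scan gains without background subtraction, per the file headers. RNA was amplified and labelled with Cy5, per the labels' protocols. The authors' processed intensity values have a median of 25 on each array; compared with the scanner files they are the spot minus the blank level times 1 factor per array, which fixes their scale and direction. Intensities were background-corrected with normexp (limma 3.58.1, R 4.3.3, offset 50), log2-transformed and quantile-normalized over 23473 probes, and the ratio is depleted over control. A probe was above background where it exceeded the mean of 2736 blank spots by 2 SD; on the array where it did not, it was set to at least the lowest value above background. Genes with several probes (1283 of 19321) were represented by the brightest. Names came from the platform annotation (20690 probes with a symbol). Differences are descriptions at 2-fold, since 1 array per group allows no test. The script was tested on simulated data. Python 3.11.15, numpy 2.4.6, pandas 2.3.3 and matplotlib 3.10.9 were used. The 13 alternatives were an offset of 16, no correction, blank or local background subtraction, scaling to the median, cyclic loess, the processed values, the mean of probes, 3 filters on dim genes and thresholds of 1.5-fold and 3-fold. Lists share a few genes. The members, the gene lists and the alternatives were chosen with earlier results of these data known. Named were all members and family genes, up to 6 genes of each related list and up to 3 of each cell type list by size of ratio, Pdgfra and, outside that rule, neighbouring genes, Spock3 and myofibre genes. The array design and probe sequences were not used here.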

Additional observations from a re-analysis of the deposited data

Results flagged for a closer look

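The positive control spots, set beside the gene differences above, were brighter on the depleted array. Over 24 spots each, positive control 2 averaged 850.6 in the control and 1800.2 in the depleted sample, 2.12-fold higher, and positive control 3 averaged 5668.0 and 9837.3, 1.74-fold higher. With the scaling of the authors' processed values they would still be 1.60-fold and 1.28-fold higher. The sources used here do not say what these spots hybridize, and their part in the ratios was not tested.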

How the results depend on the processing

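No paired analysis was possible because only 1 array per group exists here. Of the members, 9 were lower in the main processing and Fmod alone changed sign, at 0.04 with scaling to the median. The median of the members was -0.12 with scaling to the median, against -0.40. The count at least 2-fold lower was 4 with the local background subtracted, against 10.9% of all genes. Fmod (-1.32) and Podn (-1.39) were added there. At a 3-fold threshold the count in the main processing was 1, against 0.0919% of all genes, and a stricter threshold can only keep or lower a count. Podn was at -2.31 with the blank spots subtracted and in the processed values. The median of the other family genes was -0.29 with the blank spots subtracted, 0.26 with the local background subtracted, -0.31 in the processed values and -0.35 over brighter genes, where fewer genes remain. Scaling to the median gave -0.45 for the collagens, and local background subtraction gave 0.44 for the keratan sulfate list, 0.18 for the proteases and -0.17 for the ligands and receptors; beyond that the cause was not tested. Over all genes 79 were lower and 91 higher by 2-fold (53.5% higher), against 38 and 216 with scaling to the median (85.0% higher), 397 and 592 in the processed values, 360 and 503 with the blank spots subtracted, 117 and 163 at an offset of 16 and 2021 and 1940 with the local background subtracted. That column follows the spot itself (Spearman correlation across spots 0.943 and 0.973). Signal over background limits Podn and the dim family genes.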
